A study of Mus musculus with 16 samples.

Results

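Fc receptors and Fc receptor-like molecules were examined as a family of 8 genes in B cells of the mouse spleen, sorted as follicular (FO) or marginal zone (MZ) cells. The members are Fcer2a, Fcgr2b, Fcer1g, Fcrl1, Fcrl5, Fcrla, Fcmr and Fcgrt. They were taken by gene symbol, and all 8 were found among the 27928 genes of the table. Total RNA of sorted cells, depleted of ribosomal RNA, was sequenced as reads of 50 bases, with 2 libraries in each of 4 groups. The WT groups came from C57BL/6 mice. The cKO groups came from mice of the same strain with both Gtf2i alleles floxed and a Cre allele that acts in the B lineage, which removes Gtf2i, the gene of the transcription factor TFII-I, from B cells. Mice were 8 to 12 weeks old by the methods of the study. The WT mice are given with no Cre allele. FO cells were sorted as low for CD21 and high for CD23, and MZ cells as high for CD21 and low for CD23. No source used here says whether the libraries of a group came from separate mice. The libraries of cKO FO differed in the X-linked RNA Xist, and in the other groups the spread between libraries may be technical.

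Fc receptors bind the constant part of antibodies and so tie what a B cell or phagocyte does to the antibody already present. B cells are unusual among leukocytes in that their only classical IgG receptor is the inhibitory Fcgr2b, whose immunoreceptor tyrosine-based inhibitory motif (ITIM) recruits phosphatases when antigen bound to IgG is recognized. Activating Fc receptors of myeloid, NK and mast cells signal instead through Fcer1g, a small adaptor with an activating motif (ITAM). The Fc receptor-like genes descend from the same ancestor, and several of their products modulate signaling by the B cell receptor.

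The 4 genes that passed the test between FO and MZ cells in at least 1 genotype have distinct roles. Fcer2a encodes CD23, the low-affinity receptor for IgE. Fcgrt encodes the heavy chain of FcRn, which recycles IgG and albumin inside cells. Fcrl5 encodes a receptor-like protein of innate-like B cells. Fcmr encodes the receptor for IgM. The bases upstream of the RefSeq starts of the first 3, which passed in both genotypes, are shown because these genes moved together or in opposition between the subsets. Each runs 5′ to 3′ on the strand of its gene, ends at the base before the start, and comes from RefSeq on GRCm38.p6. Capitals mark matches on either strand to TTCNNNNGAA, a spacing known for the interleukin 4 responsive factor STAT6, or to TGGGAA, the core known for the Notch partner RBPJ. A further motif, GAGGAA, known for PU.1, was not found in these 4 windows. RefSeq gives 3 starts for Fcer2a, and the windows of the first and the second along the gene are shown.
Fcer2a first start, chr8:3694175-3694424, minus strand: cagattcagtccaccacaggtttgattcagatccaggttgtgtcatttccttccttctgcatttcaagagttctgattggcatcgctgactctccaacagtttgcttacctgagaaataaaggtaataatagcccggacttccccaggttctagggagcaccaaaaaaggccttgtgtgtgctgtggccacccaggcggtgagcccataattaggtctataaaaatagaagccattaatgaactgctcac
Fcer2a second start, chr8:3690862-3691111, minus strand: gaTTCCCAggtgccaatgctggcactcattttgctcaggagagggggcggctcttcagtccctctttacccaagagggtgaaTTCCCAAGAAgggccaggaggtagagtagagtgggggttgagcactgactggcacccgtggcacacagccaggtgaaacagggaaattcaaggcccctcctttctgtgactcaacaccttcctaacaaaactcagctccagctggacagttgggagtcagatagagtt
Fcgrt, chr7:45103823-45104072, minus strand: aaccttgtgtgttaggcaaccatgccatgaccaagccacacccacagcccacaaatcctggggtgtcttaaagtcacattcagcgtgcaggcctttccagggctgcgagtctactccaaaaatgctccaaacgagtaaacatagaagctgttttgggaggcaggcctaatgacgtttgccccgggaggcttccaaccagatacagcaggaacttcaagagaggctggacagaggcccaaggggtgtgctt
Fcrl5, chr3:87435532-87435781, plus strand: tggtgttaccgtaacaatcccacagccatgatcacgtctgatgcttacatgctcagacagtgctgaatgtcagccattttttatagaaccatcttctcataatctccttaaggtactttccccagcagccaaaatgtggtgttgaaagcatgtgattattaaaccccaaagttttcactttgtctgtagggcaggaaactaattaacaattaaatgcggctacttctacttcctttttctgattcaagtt

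The second window of Fcer2a held the STAT6-type motif 168 bases before the start. The motif reads the same on both strands, and an RBPJ core on the opposite strand begins at the same base and overlaps it. A further RBPJ core lies 248 bases before the start. The STAT6-type motif was found in 5.85% of 32851 promoter windows of 250 bases, the RBPJ core in 21.6% and the PU.1 core in 23.3%. Of the 10 windows of the 8 genes, 1 held the STAT6-type motif, 2 held the RBPJ core, both of Fcer2a, and 3 held the PU.1 core, those of Fcrl1, Fcrla and Fcmr. A match is a description of the letters only, and the counts over a gene do not tell which start was used.

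The values below are normalized counts, that is reads on a gene divided by the size factor of the library. They were compared by limma on the log2 scale after adding 1, over the 14761 genes with a mean of at least 10, which all 8 members passed. A gene was called when its adjusted p was at most 0.05 and its difference was at least 1.5-fold. With 2 libraries in a group the spread of a single gene is poorly known, so limma borrows the spread of all genes for each member. Its p-values rest on that model, since permuting 2 libraries against 2 exactly gives a two-sided p of 0.333 at best. In sorted bulk samples, fewer cells that use a gene and less RNA per cell cannot be told apart.

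The 8 libraries held 21546552 to 25083552 reads on genes. All 5 MZ B cell markers chosen for the check of the labels, Cr2, Cd1d1, S1pr3, Cd9 and Dtx1, were higher in MZ than in FO cells in each genotype. Gtf2i had 1992 to 2864 normalized counts in the WT libraries and 1523 to 1889 in the cKO libraries. Each cKO library was below each WT library, but Gtf2i was not called in FO (limma adjusted p = 0.989) or in MZ (0.363). The paper reports its deletion from B cells in DNA, mRNA and protein. Counts over the whole gene do not tell which exons the reads came from. The genotypes also differed in sex-linked RNA, with the Y-linked gene Ddx3y at most 6.34 in WT libraries and at least 2682 in cKO libraries. Xist, the RNA of the inactive X chromosome, had at least 25930 normalized counts in WT libraries and 67.4, 89.7 and 21.7 in 3 cKO libraries, but 14750 in cKO FO replicate 1, which thus held both RNAs and stood apart. Without that library the cKO calls of Fcer2a, Fcrl5 and Fcgrt between subsets held and that of Fcmr was lost (limma adjusted p = 0.0796). Granulocyte markers stood apart in a single library, cKO MZ replicate 1, with a sum of 2005 normalized counts over 12 genes against 33.3 to 118 in the other libraries.

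Between FO and MZ cells of WT mice, 2 of the 8 genes were called higher in FO, where 4.62% of all genes tested were, and 1 was called higher in MZ, where 7.41% were. In cKO mice, 3 were called higher in FO (5.54% of all genes) and 1 higher in MZ (8.18% of all genes). The libraries of the subsets did not overlap for 7 of the 8 genes in either genotype, where the same held for 55.3% of all genes in WT and 65.0% in cKO. The median difference of the 8 genes, FO minus MZ on the log2 scale, was 0.027 in WT and 0.031 in cKO, beside 0.0048 and 0.0047 over all genes. These counts and medians include Fcer2a, the gene of the sort marker CD23, whose difference is a check of the sort and not a result. With Fcer2a set aside, the family still did not move one way. Fcgrt was high in FO cells and Fcrl5 in MZ cells, while Fcrl1 and Fcrla lay close to equal.

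**Figure D1:**
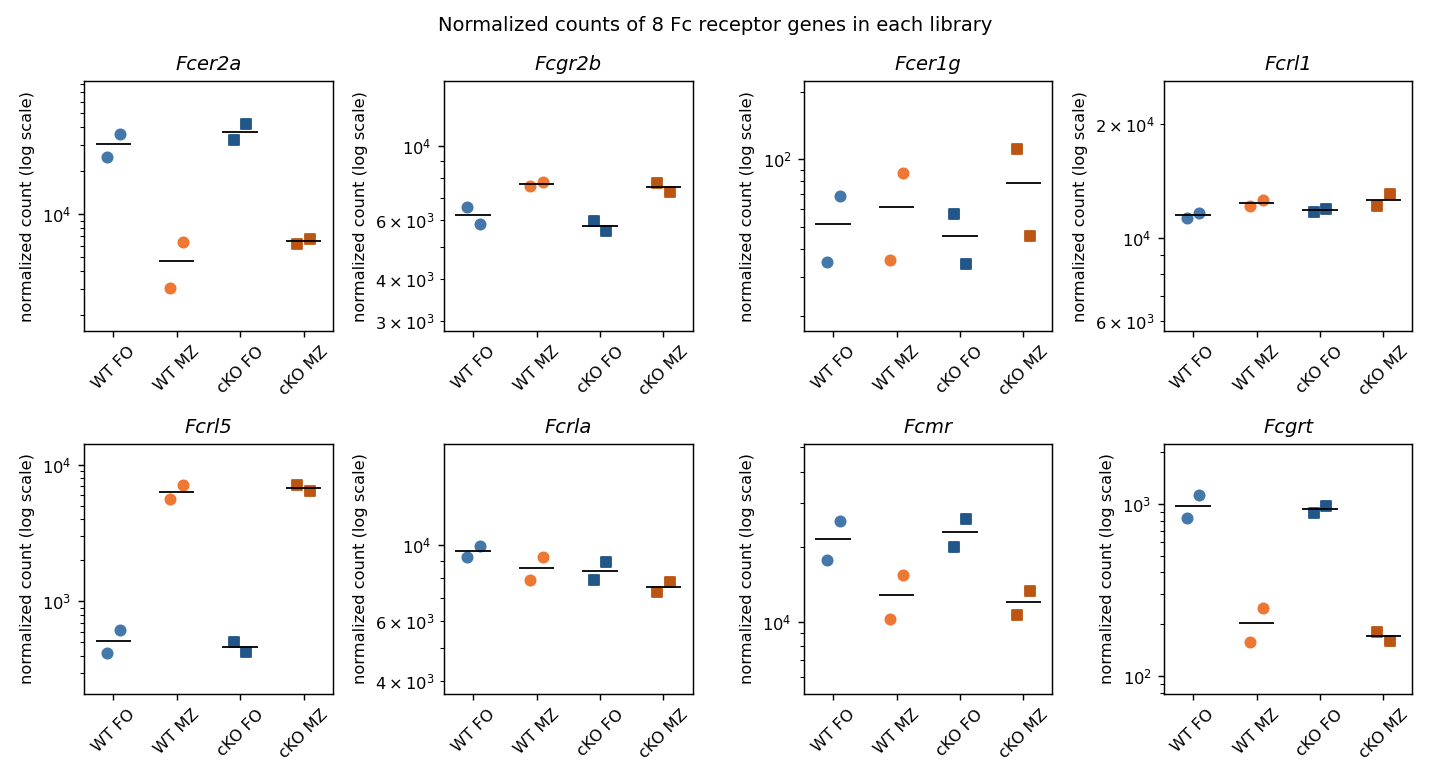
Each panel plots 1 gene, with a point for each library (circles WT, squares cKO) and a line at the mean of the 2 libraries of a group, on a log axis of normalized counts whose range differs between panels. Fcer2a and Fcgrt sat higher in FO, Fcrl5 sat higher in MZ, and Fcer1g, at 34.2 to 112, spread widely within every group.

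Fcer2a (ENSMUSG00000005540.10, chromosome 8 from 3681737 to 3694175, minus strand) encodes the protein that the sort was gated on, so its difference between the subsets is a check of the sort and not a result. It had 24802 and 36159 normalized counts in the FO libraries of WT mice and 32729 and 41973 in those of cKO mice, while the MZ libraries had 3069 and 6412 in WT and 6245 and 6708 in cKO mice. Every FO library was above every MZ library. The difference was 2.75 on the log2 scale in WT (95% confidence interval 1.99 to 3.52), or 6.75-fold, and 2.52 in cKO (1.76 to 3.28), or 5.73-fold. The WT MZ libraries differed from each other 2.09-fold, a wider gap than 93.1% of the genes tested showed in that group. MZ cells had Fcer2a at a mean of 4741 ± 2363 (SD, n = 2) in WT and 6476 ± 327 (SD, n = 2) in cKO. Cr2, the gene of CD21, which is both the other sort marker and a ligand of CD23, was 3.49-fold higher in MZ in WT and 3.81-fold in cKO.

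Genes that act upstream of CD23 were listed as 6, Il4ra, Il2rg, Jak1, Jak3, Stat6 and Cd40, since interleukin 4 and CD40 signals are known to induce it in B cells. In WT mice 2 of the 6 were called higher in FO and 0 higher in MZ, and in cKO mice 3 and 0. Il4ra, the receptor chain that binds interleukin 4, had 13627 and 11974 normalized counts in WT FO against 4469 and 4888 in WT MZ, and 9357 and 9650 in cKO FO against 3220 and 3467 in cKO MZ. No FO library reached down to the MZ libraries. Its difference was 1.45 in WT and 1.51 in cKO on the log2 scale, with a standard error of 0.096 and limma adjusted p of 0.000163 and 0.000127. Jak1, a kinase of this receptor, was 1.64-fold and 1.71-fold higher in FO. Stat6, which carries the signal to the nucleus, was called in cKO (1.53-fold, adjusted p = 0.0234) and not in WT (1.27-fold, adjusted p = 0.161). Cd40, the receptor that receives T cell help, had 2915 and 3352 normalized counts in WT FO against 4075 and 3772 in WT MZ, and 2789 and 3735 in cKO FO against 4043 and 4144 in cKO MZ. The FO libraries lay below the MZ libraries in each genotype, but the difference of -0.33 in WT was not called (limma, adjusted p = 0.169), nor was that of -0.34 in cKO (adjusted p = 0.136). Jak3, another kinase of the pathway, likewise had -0.20 and -0.26 (adjusted p = 0.223 and 0.112). Adam10, the protease known to shed CD23 from the membrane, lay between 3486 and 4116 in the 8 libraries and was not called in either genotype.

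Fcgr2b (ENSMUSG00000026656.15, chromosome 1 from 170958617 to 170976547, minus strand) is the inhibitory IgG receptor. It had 6575 and 5820 normalized counts in the FO libraries of WT mice and 5958 and 5584 in those of cKO mice, while the MZ libraries had 7597 and 7798 in WT and 7743 and 7297 in cKO mice. The MZ libraries all lay above the FO libraries, by a small margin. The difference, FO minus MZ, was -0.32 in WT (standard error 0.091, limma adjusted p = 0.0522) and -0.38 in cKO (adjusted p = 0.0238), which is 1.24-fold and 1.30-fold and under the cutoff of 1.5-fold in both. Fcgr2b therefore was not called in either genotype. Of its 5685 distinct stretches of 50 bases, the read length, 395 also occur in transcripts of other genes, and 166 of them in Fcgr3, its activating neighbour. Fcgr3 had 12.1 to 52.8 normalized counts, against at least 5584 for Fcgr2b. The antisense gene Gm38204 shares 155 exon bases with Fcgr2b and had a mean of 7.13, and since no source used here says whether strand was used in counting, their reads cannot be told apart.

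Phosphatases, adaptors and kinases of ITIM signaling were listed as 8 genes. None of Inpp5d, Inppl1, Ptpn6, Ptpn11, Lyn, Dok1, Dok3 and Csk was called in either genotype by limma at 1.5-fold, nor by edgeR or DESeq2, and 3 had an unadjusted p under 0.05 in each. Inpp5d, the lipid phosphatase SHIP that Fcgr2b recruits, had 9097 to 11018 normalized counts over all libraries. Dok1, an adaptor below SHIP, was lower in FO by 1.46-fold in WT (adjusted p = 0.00604) and 1.34-fold in cKO (adjusted p = 0.015), again under the cutoff. Csk, a kinase that holds Src family kinases inactive, was higher in FO by 1.28-fold (adjusted p = 0.0386) and 1.37-fold (adjusted p = 0.0136).

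Fcer1g (ENSMUSG00000058715.11, chromosome 1 from 171229572 to 171234365, minus strand), the ITAM adaptor, was the least expressed of the 8 per length in 3 of the 4 groups. It had 34.9 and 68.5 normalized counts in the FO libraries of WT mice and 57.1 and 34.2 in those of cKO mice, while the MZ libraries had 35.6 and 86.9 in WT and 112 and 45.4 in cKO mice. The libraries of the subsets overlapped in both genotypes. The difference, FO minus MZ, was -0.18 in WT (95% confidence interval -1.57 to 1.20) and -0.68 in cKO (-2.06 to 0.71), and without cKO MZ replicate 1 it was -0.036 in cKO. The libraries of a group differed 1.67-fold to 2.46-fold, against 1.02-fold to 1.07-fold for Fcrl1. These values rest on 34 to 112 reads a library, where the other members had at least 155.

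Within groups, the level of Fcer1g went with some lists of markers of other cells and not with others. In 4 of 4 groups the library with more Fcer1g was also the library with the higher sum of 12 macrophage and monocyte markers, and the same held for the sums of 8 NK cell markers and of the 6 mast cell and basophil markers found in the table. Single markers did not all follow their sum. In WT MZ replicates 1 and 2, Fcer1g had 35.6 and 86.9 normalized counts. There Prf1, of the NK list, had 410 and 299, and Cd68, of the macrophage list, had 378 and 283. How many single markers followed Fcer1g was not counted. The macrophage sum ranged from 792 to 1433 in the FO libraries and from 849 to 2267 in the MZ libraries, and it was highest in cKO MZ replicate 1 and WT MZ replicate 2, where Fcer1g was highest too. Of the 12 macrophage and monocyte markers, 10 passed the filter, and limma and edgeR called Cd68, higher in MZ in both genotypes, and no other. DESeq2 also called Cd5l, a gene of tissue macrophages, higher in MZ in cKO, where limma gave -1.22 on the log2 scale (adjusted p = 0.0576). No marker of this list was at 0 in all libraries. The mast cell and basophil sum was low, at 10.1 to 87.7 normalized counts, and 1 gene of that list passed the filter. The sums of dendritic cell and of T cell markers followed Fcer1g in 3 of 4 groups each. Those of platelet and of B cell markers did so in 2 of 4, and those of granulocyte and of plasma cell markers in 1 of 4. Such counts rest on 4 groups, and the share of all genes doing the same was not taken. Among the Fc gamma receptors that need Fcer1g, Fcgr3 and Fcgr4 had the higher value in the same library in 4 of 4 groups, at up to 52.8 and up to 43.9 normalized counts, and Fcgr1, at up to 14.5, in 2 of 4. The part of other cells in the Fcer1g values was not tested.

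**Figure D2:**
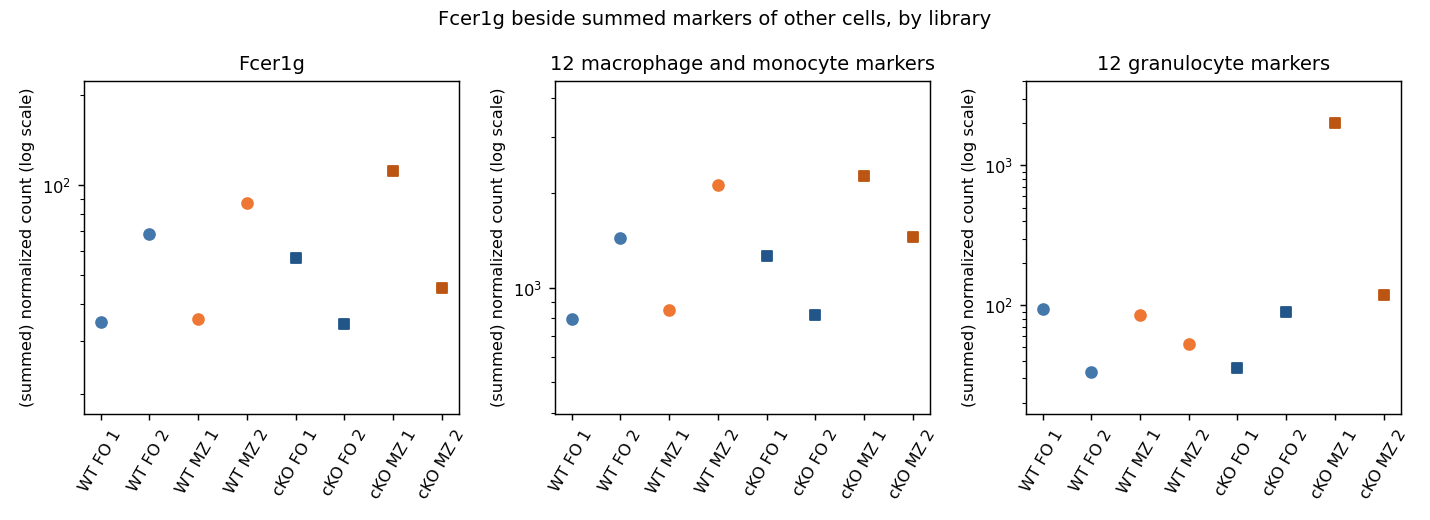
The left panel plots the normalized count of Fcer1g in each of the 8 libraries, the middle panel the summed normalized count of 12 macrophage and monocyte markers, and the right panel that of 12 granulocyte markers, all on log axes. The first and second panels rise and fall in the same libraries within each group, and the third has a single high library, cKO MZ replicate 1, at 2005.

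A related adaptor gene, Tyrobp (DAP12), showed another pattern. It had 435 and 497 normalized counts in the FO libraries of WT mice and 346 and 439 in those of cKO mice, while the MZ libraries had 1241 and 1202 in WT and 1073 and 1018 in cKO mice, with no overlap between subsets. The FO minus MZ difference was -1.39 for WT (limma, adjusted p = 0.000713) and -1.42 for cKO (adjusted p = 0.000596). Hcst (DAP10) was higher in MZ as well, 2.31-fold in WT and 2.21-fold in cKO. Tyrobp and Fcer1g had the higher value in the same library in 2 of 4 groups. These 2 adaptors stood in a list of 6 genes with Cr2, B2m, Ighm and Adam10, named as partners of the Fc receptors or related adaptors. Cr2, Tyrobp and Hcst were called higher in MZ in each genotype, while B2m, Ighm and Adam10 were not called. Cr2 is the gene of the sort marker CD21, so its call is a check of the sort. The median of the 6, Cr2 included, was -0.75 in WT and -0.62 in cKO.

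Among 10 genes of ITAM signaling, the pathway that the B cell receptor and activating Fc receptors share, 1 was called higher in FO and 2 higher in MZ in WT, and 1 and 0 in cKO. Pik3cd, a catalytic subunit of phosphoinositide 3-kinase, was higher in FO in both genotypes, 1.54-fold in WT and 1.60-fold in cKO. Blnk, a linker protein, and Vav2, an exchange factor, were higher in MZ in WT, 1.60-fold and 1.57-fold. None of the 10 was called for the interaction of genotype and subset by limma, edgeR or DESeq2, and 0 had an unadjusted p under 0.05 there, so the genotypes were not shown to differ.

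Fcrl1 (ENSMUSG00000059994.10, chromosome 3 from 87376387 to 87402934, plus strand) and Fcrl5 (ENSMUSG00000048031.15, chromosome 3 from 87435773 to 87500678, plus strand) are neighbours on the same strand. Fcrl1 is known as a coactivating receptor of the B lineage, and Fcrl5 carries both activating and inhibitory motifs. Their values went apart. Fcrl5 had 418 and 616 normalized counts in the FO libraries of WT mice and 504 and 424 in those of cKO mice, while the MZ libraries had 5614 and 7167 in WT and 7175 and 6494 in cKO mice. The lowest MZ library was far above the highest FO library in each genotype. The difference, FO minus MZ, was -3.64 in WT (95% confidence interval -4.10 to -3.18, limma adjusted p = 7.06e-05), or 12.5-fold, and -3.88 in cKO (-4.34 to -3.42, adjusted p = 4.27e-05), or 14.7-fold.

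Fcrl1 had 11275 and 11639 normalized counts in the FO libraries of WT mice and 11715 and 11911 in those of cKO mice, while the MZ libraries had 12153 and 12583 in WT and 12173 and 13033 in cKO mice. The MZ libraries again lay above the FO libraries of their genotype, by little. The difference was -0.11 in WT (95% confidence interval -0.30 to 0.077) and -0.093 in cKO (-0.28 to 0.095), so that both intervals excluded a change of 1.5-fold. The log2 SD of Fcrl1 within groups was 0.017 to 0.070, the lowest of the 8 members in both FO groups but not in the MZ groups. Neither gene shares a stretch of 50 bases with transcripts of other genes, and the same held for Fcer1g, Fcrla, Fcmr and Fcgrt.

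**Figure D3:**
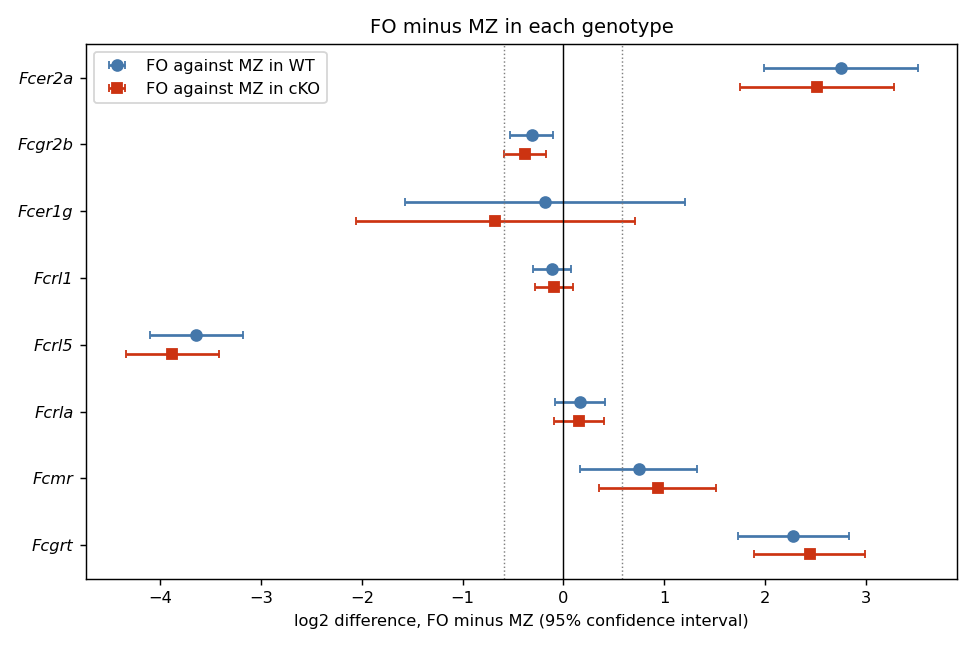
The plot gives the log2 difference, FO minus MZ, of each gene in WT (circles) and cKO (squares) with its 95% confidence interval, and dotted lines mark 1.5-fold. Fcrl5 lies at -3.64 and -3.88, Fcer2a and Fcgrt lie between 2.28 and 2.75, and the intervals of the 2 genotypes overlap for each gene.

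Fcrla (ENSMUSG00000038421.13, chromosome 1 from 170917576 to 170927583, minus strand) encodes a protein that stays inside the B cell and binds immunoglobulin there. It had 9241 and 9924 normalized counts in the FO libraries of WT mice and 7912 and 8924 in those of cKO mice, while the MZ libraries had 7927 and 9207 in WT and 7309 and 7789 in cKO mice. Each FO library was above each MZ library of its genotype, narrowly. The difference was 0.16 on the log2 scale in both WT (95% confidence interval -0.084 to 0.41) and cKO (-0.094 to 0.40), with limma adjusted p of 0.354 and 0.353. With quantile normalization the cKO difference turned to -0.030. Fcrla, Fcgr2b and Fcer1g lie in the same stretch of chromosome 1, and Fcrla and Fcgr2b, which are adjacent in this set, leaned to opposite subsets without either being called.

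Fcmr (ENSMUSG00000042474.6, chromosome 1 from 130865669 to 130880791, plus strand), the IgM receptor, had 17649 and 25285 normalized counts in the FO libraries of WT mice and 19878 and 25850 in those of cKO mice, while the MZ libraries had 10236 and 15442 in WT and 10636 and 13228 in cKO mice. The FO libraries lay above the MZ libraries in each genotype. The difference was 0.75 in WT (95% confidence interval 0.17 to 1.33, limma adjusted p = 0.0832), which is 1.68-fold and was not called, and 0.93 in cKO (0.35 to 1.51, adjusted p = 0.0362), which is 1.91-fold and was called. The genotypes were not shown to differ, with an interaction of 0.19 (-0.63 to 1.01, limma adjusted p = 1). The cKO call was lost in 6 of 16 alternatives, among them without each of its own 4 libraries (adjusted p 0.0796 to 0.212), and the WT difference was called in 4 of 16, so both lie near the threshold. Ighm, the gene of its IgM ligand, had 122725 to 225292 normalized counts and was not called in either genotype.

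Fcgrt (ENSMUSG00000003420.8, chromosome 7 from 45092990 to 45103851, minus strand), the FcRn heavy chain, had 831 and 1122 normalized counts in the FO libraries of WT mice and 885 and 977 in those of cKO mice, while the MZ libraries had 157 and 250 in WT and 181 and 160 in cKO mice. Every FO library was above every MZ library. The difference was 2.28 in WT (95% confidence interval 1.73 to 2.83, limma adjusted p = 0.000899), or 4.85-fold, and 2.44 in cKO (1.89 to 2.99, adjusted p = 6e-04), or 5.43-fold. The light chain of FcRn is B2m, which class I molecules also use. B2m had 37044 to 43102 normalized counts in the 8 libraries and was not called, with a difference of -0.10 in WT and 0.094 in cKO.

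Other Fc receptor genes were listed as 11, of which 10 were in the table and 6 passed the filter (Fcgr3, Fcgr4, Fcrlb, Fcamr, Pigr and Trim21). Between the subsets limma, edgeR and DESeq2 called 0 of the 6 in either genotype, and 1 had an unadjusted p under 0.05 in each. Fcrlb, an intracellular relative of Fcrla, had 42.9 and 31.4 normalized counts in the FO libraries of WT mice and 35.8 and 22.1 in those of cKO mice, while the MZ libraries had 9.63 and 14.5 in WT and 8.97 and 15.5 in cKO mice. Its libraries did not overlap, and its difference was 1.56 in WT (adjusted p = 0.0523) and 1.19 in cKO (adjusted p = 0.106). Trim21, the cytosolic antibody receptor, was the highest of the list at 1040 to 1681. Fcamr, which binds IgA and IgM, ranged from 354 to 888, and Pigr, which carries polymeric antibody across epithelia, from 178 to 298. The genes of the mast cell IgE receptor, Fcer1a and Ms4a2, were at most 2.99 and 9.06.

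Of 10 other inhibitory receptors of B cells, 1 was called higher in FO and 2 higher in MZ in each genotype. Btla, the FO gene, had 16106 and 22092 normalized counts in WT FO against 6866 and 10871 in WT MZ, and was 2.18-fold higher in FO in WT and 2.17-fold in cKO. Lair1, a collagen receptor, was 11.3-fold higher in MZ in WT (limma adjusted p = 3.01e-05) and 16.2-fold in cKO (adjusted p = 1.47e-05). Lilrb4a was 8.35-fold and 8.30-fold higher in MZ. Cd22, Cd72, Siglecg, Pecam1, Ceacam1 and Cd300a were not called by limma, edgeR or DESeq2. Pirb, 1.57-fold higher in FO in cKO, was called there by DESeq2 and not by limma (adjusted p = 0.0857) or edgeR.

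To set the 8 genes beside each other, counts were divided by the length of the exons of each gene in kb. On this per kb scale Fcmr was first in all 4 groups. In WT FO it had 10166 and 14565 per kb, which overlapped Fcer2a at 8021 and 11694 per kb. Fcrla and Fcrl1 followed at means of 5491 and 3218 per kb, then Fcgr2b at 1070, Fcgrt at 465, Fcrl5 at 149 and Fcer1g at 59.2 per kb, and below the first pair no neighbours overlapped. In WT MZ the order was Fcmr, Fcrla, Fcrl1, Fcrl5, Fcer2a, Fcgr2b, Fcgrt and Fcer1g. There Fcrl5 at 1613 and 2060 per kb overlapped Fcer2a at 993 and 2074 per kb, which in turn spanned Fcgr2b at 1312 and 1347 per kb, and Fcgrt at 74.7 and 119 per kb overlapped Fcer1g at 40.8 and 99.5 per kb. In cKO FO the first pair overlapped too, and in cKO MZ the overlaps were Fcer2a with Fcrl5 and Fcgrt with Fcer1g. Fcrl5 moved from the seventh place in FO to the fourth in WT MZ and the fifth in cKO MZ.

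**Figure D4:**
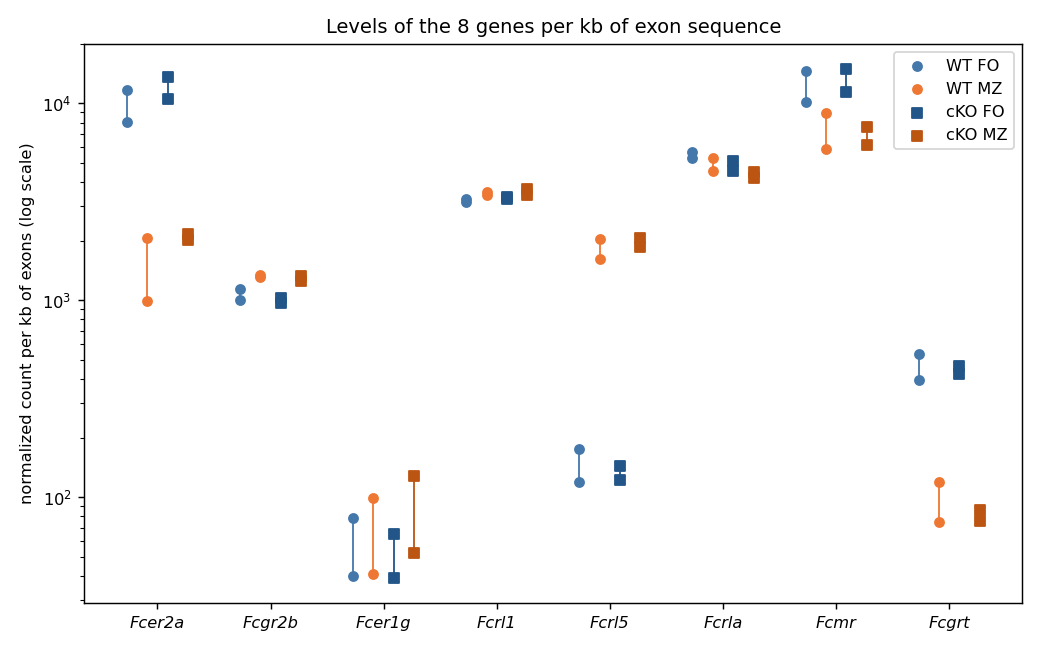
Points give the normalized count per kb of exons for each library (circles WT, squares cKO), and a line joins the 2 libraries of a group, on a log axis. Fcmr, Fcrla and Fcrl1 stay above Fcgr2b in every group, while Fcer2a, Fcrl5 and Fcgrt shift between the subsets.

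Within groups, some members kept the same library high. Fcer2a, Fcrl1, Fcrla and Fcmr had their higher value in the same library in 4 of 4 groups, and Fcgrt shared it with them in 3 of 4. Fcer2a and Fcgr2b shared it in 1 of 4. The gap was wide for Fcmr, at 1.24-fold to 1.51-fold between the libraries of a group, and small for Fcrla, at 1.07-fold to 1.16-fold. Each count rests on 4 pairs of libraries, and the share of all genes doing the same was not taken. Over the 14761 genes tested, the differences between replicates 2 and 1 correlated between groups at -0.30 to 0.59. The highest of these was between WT FO and WT MZ, so a shared higher library is not particular to these members.

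The genes whose pattern over the 8 libraries was most like that of each called member were named by Pearson's r of the log2 values. All such r are raised by the difference between FO and MZ that these genes share, and they are a description. For Fcer2a they were Mylip (r = 0.994), Cd55 (r = 0.994) and Tnik (r = 0.993). For Fcrl5 they were BC017158 (r = 0.999), Cdh17 (r = 0.999) and Cipc (r = 0.998). For Fcmr they were Ms4a4c (r = 0.995), Atp6v0a1 (r = 0.989) and 6330537M06Rik (r = 0.988). For Fcgrt they were Enpp1 (r = 0.997), Parp1 (r = 0.997) and Gm19951 (r = 0.997). In WT mice Cd55, which restrains complement, had a mean of 20240 normalized counts in FO against 4685 in MZ cells, and Cdh17, a cadherin, stood at 209 and 2105.

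Whether loss of Gtf2i changed the family was asked by setting cKO beside WT within each subset. Limma called 0 of the 8 genes in FO (0.0677% of all genes were called), 0 in MZ (0.0339%), 0 over both subsets (0.108%) and 0 for the interaction (0.0%). DESeq2 and edgeR on the recovered reads called 0 as well. At an unadjusted p under 0.05 the members numbered 0, 0, 1 and 0, and all genes 382, 596, 978 and 94. The differences, cKO minus WT, ranged from -0.19 to 0.31 in FO and from -0.22 to 0.54 in MZ on the log2 scale, with medians of -0.078 and -0.0038 beside -0.0099 and -0.015 over all genes. The libraries of the genotypes did not overlap for 2 genes in FO, Fcrl1 and Fcrla, where 24.0% of all genes did not, and for 1 gene in MZ, Fcrla, where 34.5% did not.

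Fcrla was the member with an unadjusted p under 0.05 over both subsets. It was lower in all 4 cKO libraries than in the WT libraries of the same subset, by -0.19 in FO (95% confidence interval -0.44 to 0.060), -0.18 in MZ (-0.43 to 0.070) and -0.18 over both (-0.36 to -0.0080, limma adjusted p = 0.744). This is 1.14-fold and was not called. Fcer2a had the widest margin upward, 0.54 in MZ (-0.22 to 1.31) and 0.31 in FO (-0.45 to 1.07), with overlapping libraries in both subsets. For Fcgr2b, Fcrl1 and Fcrla the intervals in each subset lay within 1.5-fold either way, while for Fcer1g in MZ the interval ran from -1.04 to 1.73 and left a wide range on both sides of 0.

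**Figure D5:**
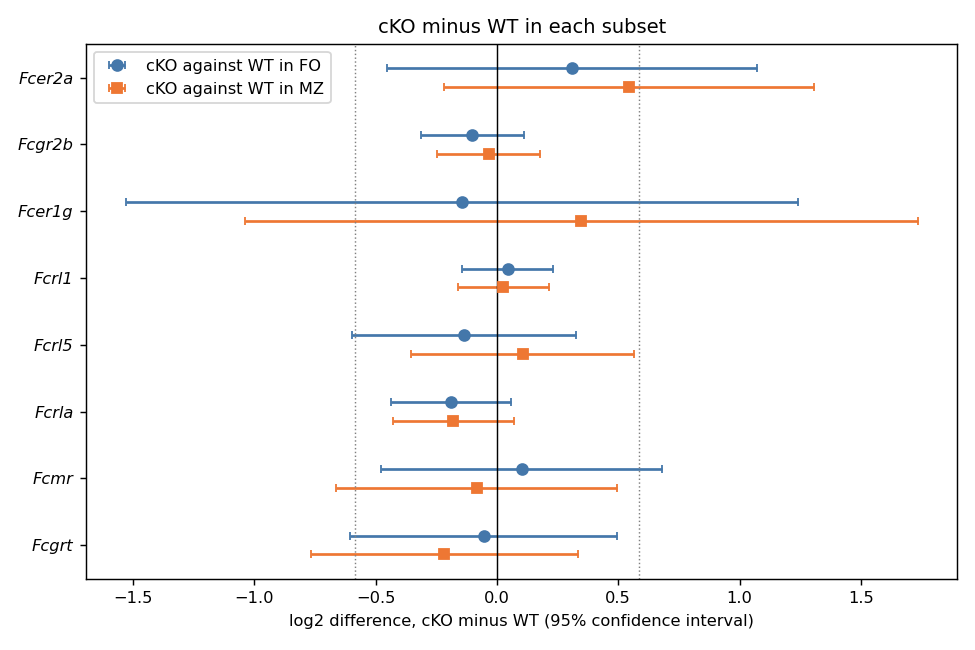
The plot gives the log2 difference, cKO minus WT, of each gene in FO (circles) and MZ (squares) with its 95% confidence interval, and dotted lines mark 1.5-fold. All 16 intervals include 0, and the widest are those of Fcer1g.

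Among the lists of Fc receptor partners, ITIM genes, CD23-inducing genes and other inhibitory receptors, limma, edgeR and DESeq2 called 0 genes between the genotypes in any comparison, and at most 1 gene of a list had an unadjusted p under 0.05. Il4ra was lower in each cKO library than in the WT libraries of its subset, by -0.43 in FO and -0.48 in MZ on the log2 scale, and was not called over both subsets (-0.46, limma adjusted p = 0.0939). Fcamr, of the other Fc receptor genes, had 507 and 696 normalized counts in FO and 599 and 888 in MZ cells of WT mice, against 354 and 375 in FO and 551 and 463 in MZ cells of cKO mice. Its cKO libraries lay below the WT libraries in each subset. The difference over both was -0.62 (95% confidence interval -0.98 to -0.25, limma adjusted p = 0.508), which DESeq2 called and limma and edgeR did not. Since WT mice carry no Cre and the genotypes differ in sex-linked RNA, the Cre allele, the deletion and sex cannot be told apart in any comparison of cKO with WT.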

How the data were processed

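The deposited table holds normalized counts (a signal, not raw counts) of 27928 genes in 8 RNA-seq libraries. Per the study's methods, the authors aligned reads to mm10 with HISAT2, counted them on genes and normalized them by DESeq2. Blank lines (256343) were left out. Values are reads divided by a size factor, and whole reads were recovered for 100% of values within 0.001. Log2(normalized count + 1) was fitted by limma 3.58.1 (R 4.3.3; eBayes with trend) in a single fit of the 4 groups for the 14761 genes with a mean of at least 10, and p-values were adjusted by Benjamini-Hochberg over all of them. Counts at low values have smaller log2 differences because of the pseudocount of 1. Count tests of the recovered reads by DESeq2 1.42.0 and by edgeR 4.0.16 (quasi-likelihood) were alternatives, as were a pseudocount of 0.5, no filter, quantile normalization, 4 libraries only, the replicate number as a block, no fold cutoff, 2-fold, and each library left out. The tests were tried on simulated data for FO against MZ in WT, with 100 genes changed 2-fold and 100 changed 4-fold. Limma called 42 and 75 of these, edgeR 45 and 73, and DESeq2 55 and 78, with 13, 13 and 35 unchanged genes called. A change of 2-fold was thus often missed, and a gene not called is not shown to be unchanged. Gene positions and exon lengths are from GENCODE M21 on GRCm38 and promoter sequences from RefSeq on GRCm38.p6, where all 8 members matched. The genes named are the members, Gtf2i, called or leading genes of the lists, and the 3 most alike genes of each called member. Ddx3y, Xist and a few uncalled list genes (Fcrlb, Fcamr, Dok1, Csk and the like) were named after their values were seen. The members and lists were chosen with earlier results of these data known. The other lists, for dendritic, T and plasma cells and platelets, gave at most 2 called genes in a comparison by limma and edgeR and at most 3 by DESeq2. ATAC-seq samples were not analysed here, and some results are not reported here.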

Additional observations from a re-analysis of the deposited data

How the results depend on the processing

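The FO against MZ calls of Fcer2a, Fcrl5 and Fcgrt held in all 16 alternatives in each genotype. Fcmr in WT was called with the replicate block (adjusted p = 0.00208), with the block after exchanging the cKO MZ numbers (0.0267), by DESeq2 (0.00928) and without WT MZ replicate 2 (0.0394). Fcmr in cKO was lost with no filter (0.0531), with quantile normalization (0.0864) and without each of the 4 cKO libraries. With no fold cutoff, 2 members were called higher in MZ in cKO, as Fcgr2b joined Fcrl5. Without cKO MZ replicate 1, the library with the granulocyte markers, 2 members were called higher in FO and 1 higher in MZ in cKO. The labels give only shared replicate numbers and no pairing was established, with correlations of deviations between -0.30 and 0.59, the highest between WT FO and WT MZ, and replicate 2 was the higher library in 4 of 4 groups for Fcer2a, Fcrl1, Fcrla and Fcmr. The replicate block called 3 members higher in FO and 1 higher in MZ in each genotype, and 0 between the genotypes. Exchanging the cKO MZ numbers in the block, an alternative chosen after seeing the data, gave the same counts of 3, 1 and 0. The 4-library fit gives no value over both subsets or for the interaction. The following differences, none of them called, changed sign, and the cause was not tested. Quantile normalization gave 0.036 for Fcgr2b between the genotypes in MZ, 0.036 for Fcrl5 over both subsets, -0.015 for the Fcrl1 interaction and -0.030 for Fcrla between subsets in cKO, and DESeq2 gave -0.0010 for Fcmr over both subsets. With each library left out in turn, 23 differences changed sign. For Fcer1g the range was -0.82 to 0.45 between subsets in WT, -0.62 to 0.33 between genotypes in FO, -0.29 to 0.99 in MZ, -0.22 to 0.42 over both subsets and -1.13 to 0.15 for the interaction. The other interactions ranged from -0.77 to 0.29 for Fcer2a, -0.15 to 0.021 for Fcgr2b, -0.031 to 0.067 for Fcrl1, -0.52 to 0.038 for Fcrl5, -0.12 to 0.098 for Fcrla, -0.11 to 0.48 for Fcmr and -0.17 to 0.50 for Fcgrt. Between genotypes in MZ the range was -0.077 to 0.0086 for Fcgr2b, -0.023 to 0.076 for Fcrl1, -0.070 to 0.28 for Fcrl5, -0.38 to 0.21 for Fcmr and -0.55 to 0.12 for Fcgrt. In FO it was -0.41 to 0.14 for Fcrl5, -0.16 to 0.36 for Fcmr and -0.27 to 0.16 for Fcgrt. Over both subsets it was -0.15 to 0.12 for Fcrl5, -0.14 to 0.16 for Fcmr and -0.30 to 0.031 for Fcgrt. The number of libraries, and for Fcer1g also 34 to 112 reads, limits the precision.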
